A study of Sus scrofa with 4 samples.

Results

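The genes of fatty acid beta-oxidation were followed through the differentiation of pig subcutaneous preadipocytes. The group was a list of 31 gene names, and its members were the protein-coding rows that carried those names, so that all 31 were found among 16192 protein-coding genes. The list is one of function, and its rule used no measured value, but it was chosen with earlier results of these data known. It held 4 genes of the carnitine shuttle, 7 acyl-CoA dehydrogenases, 5 enzymes of hydration, dehydrogenation and thiolysis, 4 auxiliary enzymes for unsaturated chains, 3 genes of electron transfer and 8 genes of peroxisomal enzymes and transport.

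In beta-oxidation, a fatty acid bound to coenzyme A is shortened from its carboxyl end in repeated rounds of dehydrogenation, hydration, a further dehydrogenation and cleavage by a thiolase. Mitochondria take up long chains through the carnitine shuttle and pass the electrons to the respiratory chain, whereas peroxisomes shorten very long and branched chains with oxidases that give hydrogen peroxide. White adipocytes mainly store fatty acids as triglyceride, and malonyl-CoA, an intermediate of fatty acid synthesis, inhibits the entry of long chains into mitochondria.

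Primary preadipocytes came from the subcutaneous fat of 3 male Chinese Erhualian piglets, 5 days old, with no genetic modification named. D0 was the confluent culture before induction, D2 followed 2 days of growth medium with dexamethasone, 3-isobutyl-1-methylxanthine and insulin, D4 followed 2 further days with insulin alone, and D8 followed a return to plain growth medium. For each stage, RNA of the 3 piglets was pooled and made into 1 strand-specific library depleted of ribosomal RNA, so that there were no replicates, no difference could be tested, and stage and library cannot be told apart. The 4 libraries held 75387428 (D0), 54987801 (D2), 74358922 (D4) and 54128151 (D8) fragments on genes, as computed from the deposited values. A signal recognition particle RNA took 12.4% and 12.5% of these at D0 and D4 but 17.1% and 16.5% at D2 and D8, and its part in the ratios below was not tested.

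Levels are FPKM, which are fragments on a gene scaled by its transcript length and by the fragments of the library, so that genes can be compared within a library. Ratios between stages are log2 differences of FPKM + 0.01. A gene is said here to have risen or fallen only where its FPKM reached 1 in 3 or 4 of the libraries and its ratio reached 2, which is a size and not a test. Of the 31 members, 30 met the FPKM minimum, and their values rested on 401 to 26006 fragments per library. Brackets give the 95% interval from fragment counts, which covers counting error only and not the variation between cultures or piglets. In bulk RNA, fewer cells of a type and less RNA per cell cannot be told apart.

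The beta-oxidation genes as a group were lowest before induction and highest at D4. The FPKM of all 31 members added up to 1182 in the D0 library, and then to 1489 at D2, 1613 at D4 and 1367 at D8. Of the 30 members that passed the minimum, 20 had their lowest value at D0 and 15 their highest at D4, whereas over the 9191 protein-coding genes that passed, 22.8% were lowest at D0 and 37.3% highest at D4. The rise was uneven. From D0, 12 of the 30 members changed at least 2-fold in at least 1 of the 3 later libraries, where 25.4% of all genes did, and 3 of them (ECI1, ACAA1 and PHYH) rose in every one, where 2.45% of all genes did. Another 11 of the 30 stayed under 1.5-fold in all 5 comparisons, close to the 39.7% of all genes that did so.

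**Figure D1:**
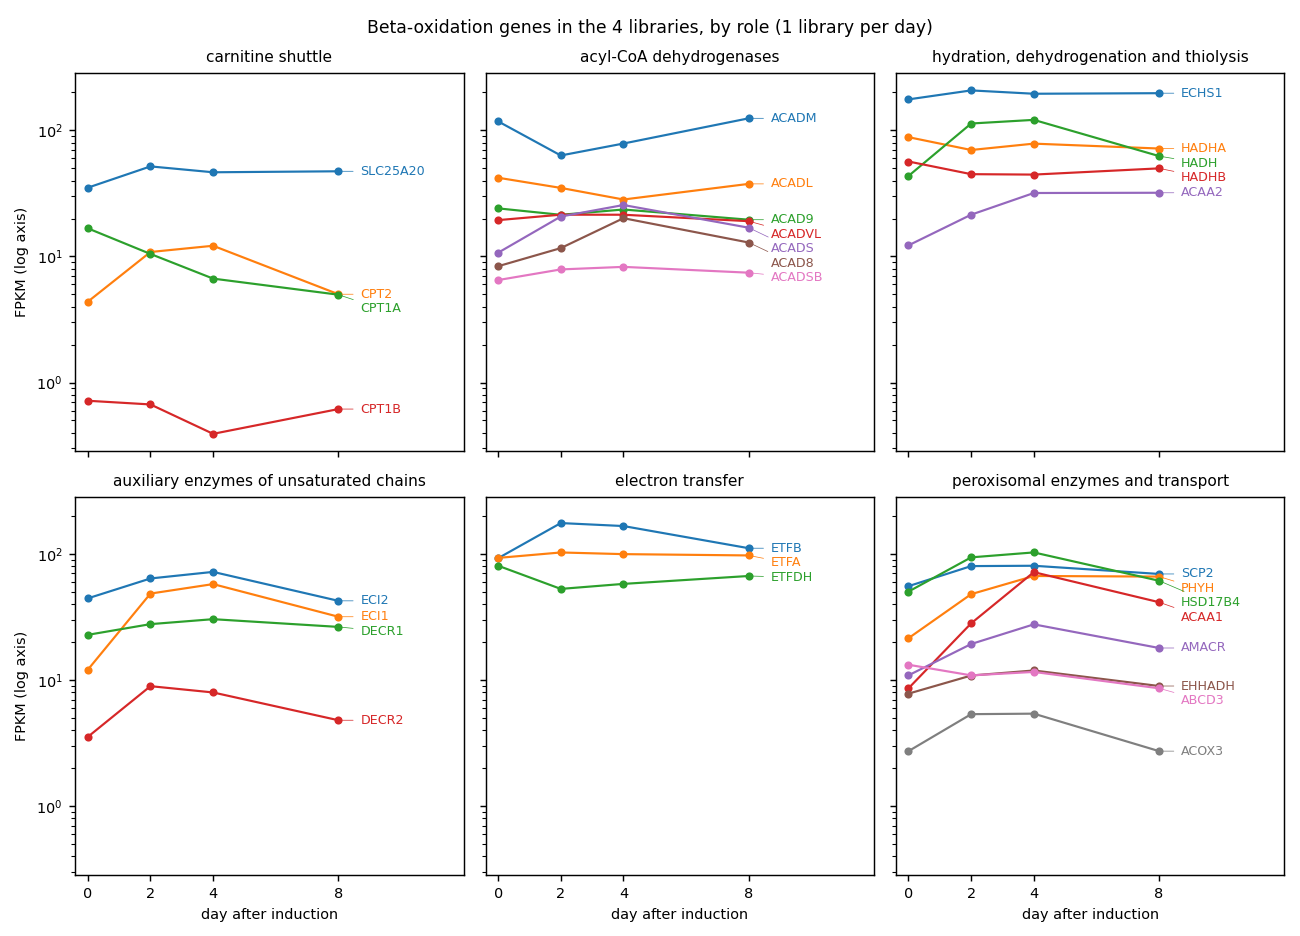
FPKM (log axis) of the 31 beta-oxidation genes by day after induction (0, 2, 4 and 8), in 6 panels by role, with 1 point per library and lines joining the 4 libraries of a gene. The peroxisomal and auxiliary panels hold the steepest rises from D0 (ACAA1 from 8.59 to 71.7 at D4, ECI1 from 12.1 to 57.6), CPT1A goes down at each stage, and CPT1B lies below 1 in every library.

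Relative to D0, the carnitine shuttle moved in opposite directions on the outer and the inner side of the mitochondrial envelope. CPT1A (chromosome 2, 4250642 to 4293914 in the pig assembly Sscrofa11.1), the outer-membrane transferase that malonyl-CoA inhibits, had FPKM of 16.7 before induction and then of 10.5 at D2, 6.67 at D4 and 4.97 at D8. It was lower at each later stage and was the only member that fell from D0, with log2 ratios of -1.32 [-1.40, -1.25] at D4 and -1.75 [-1.84, -1.66] at D8. CPT2 (chromosome 6, 159038129 to 159061327), which hands the acyl group back to coenzyme A inside the mitochondrion, had FPKM of 4.38, 10.9, 12.2 and 5.02 in the order D0, D2, D4 and D8. CPT2 thus rose by 1.31 at D2 and 1.47 at D4 on the log2 scale and fell by 1.28 [-1.39, -1.16] from D4 to D8, back to 0.20 above D0. Between them, the carnitine-acylcarnitine translocase SLC25A20 ran from 35.1 FPKM at D0 to 51.8 at D2, with 46.5 at D4 and 47.4 at D8. CPT1B, the muscle form of the outer transferase, had only 0.717, 0.670, 0.392 and 0.616 FPKM on 83 to 154 fragments and did not meet the minimum. Within a library, the FPKM of CPT2 was 0.262 times that of CPT1A before induction, and 1.04 (D2), 1.82 (D4) and 1.01 (D8) times afterwards.

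The acyl-CoA dehydrogenases, which start each mitochondrial round, differed among themselves. ACADM, for medium chains, was the most abundant of them in every library with 117.9 FPKM in the D0 library and 63.3 (D2), 78.7 (D4) and 124.7 (D8) in the others. Its low point was at D2, with a log2 ratio to D0 of -0.90 [-0.94, -0.86], and D8 was back near the D0 level. ACADS (chromosome 14, 40642810 to 40656922), for short chains, ran the other way with 10.7, 20.7, 25.6 and 16.9 FPKM and rose from D0 to D4 by 1.26 on the log2 scale. The FPKM of ACADM was therefore 11.0 times that of ACADS at D0 but 3.05 and 3.07 times at D2 and D4, and 7.38 times at D8. ACAD8 (chromosome 9, 60807405 to 60828379), the isobutyryl-CoA dehydrogenase of valine breakdown, had 8.37, 11.7, 20.1 and 12.9 FPKM and rose from D0 to D4 by 1.26 as well. The other members of the role changed less. ACADVL, for very long chains, lay between 19.1 and 21.5 FPKM, and ACAD9, which also serves in the assembly of respiratory complex I, between 19.6 and 24.1. ACADL, for long chains, was lowest at D4 with 28.3 FPKM against 42.1 at D0, and ACADSB, for short branched chains, lay between 6.50 and 8.27. The summed FPKM of the 7 genes was 229.1, 181.4, 206 and 238.3, with no dip at D2 once ACADM was left out.

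The enzymes of the later steps had the highest summed FPKM of the 6 roles, from 377 at D0 to 471.4 at D4, with wide differences among them. ECHS1, the short-chain enoyl-CoA hydratase, was the highest of the 31 in all 4 libraries and varied little, from 176.2 FPKM at D0 to 207.6 at D2. HADHA and HADHB, the subunits of the trifunctional protein for long chains, also varied little, with 69.9 to 88.4 FPKM for HADHA and 44.6 to 56.7 for HADHB, each highest at D0. The genes of these subunits lie head to head on chromosome 3 (HADHB from 112712894 to 112753121, HADHA from 112753343 to 112797627) with 221 bases between them. HADH (chromosome 8, 113952561 to 114005510), the hydroxyacyl-CoA dehydrogenase for shorter chains, stood out against them with 43.5, 113.4, 121.2 and 62.5 FPKM. It rose by 1.38 at D2 and 1.48 at D4 and was 0.52 above D0 at D8 on the log2 scale. ACAA2 (chromosome 1, 99284467 to 99310759), the mitochondrial thiolase, had 12.3, 21.5, 31.9 and 32.0 FPKM. Unlike HADH it did not come down, and its log2 ratio to D0 was 1.38 at D4 and 1.38 at D8.

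The auxiliary enzymes rearrange double bonds of unsaturated chains so that the ordinary enzymes can act on them. ECI1 (chromosome 3, 39750742 to 39758516), the mitochondrial enoyl-CoA isomerase, had 12.1, 48.5, 57.6 and 31.8 FPKM and had the largest log2 rise of all members at D2, 2.01 [1.91, 2.10]. It stayed 2.26 above D0 at D4 and 1.40 at D8. ECI2, an isomerase found in mitochondria and peroxisomes, had 44.4, 63.9, 72.0 and 42.5 FPKM and did not reach 2-fold. The ECI2 level was thus 3.68 times that of ECI1 at D0 and 1.25 to 1.34 times in the later libraries. DECR2 (chromosome 3, 41291038 to 41304044), the peroxisomal dienoyl-CoA reductase, had 3.54, 8.93, 7.97 and 4.80 FPKM and rose by 1.33 at D2 and 1.17 at D4. Its mitochondrial counterpart DECR1 lay between 22.8 and 30.4 FPKM, lowest at D0. A transcript assembled on the strand opposite DECR1 overlapped it over 26070 bases and had 16.4, 8.88, 6.70 and 8.40 FPKM, so that it was highest where DECR1 was lowest. The strand setting of the read counter is not given in the sources used here, and fragments of the pair can be told apart only if strand was used.

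The carriers that take electrons from the acyl-CoA dehydrogenases did not move together. ETFA and ETFB, the subunits of the electron transfer flavoprotein, had nearly equal levels at D0 (93.0 and 92.5 FPKM). ETFA then stayed between 97.3 and 102.7, while ETFB had 175.7 at D2, 166.4 at D4 and 111 at D8. ETFDH, the oxidoreductase that passes the electrons on to ubiquinone, went the other way with 80.6, 52.8, 57.9 and 66.8 FPKM. None of the 3 genes reached 2-fold from D0, since the log2 ratio at D2 was 0.93 [0.88, 0.97] for ETFB and -0.61 [-0.65, -0.57] for ETFDH. The ratio of ETFB to ETFDH within a library was 1.15 before induction and then 3.33 (D2), 2.88 (D4) and 1.66 (D8), a larger shift than either gene showed alone.

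**Figure D2:**
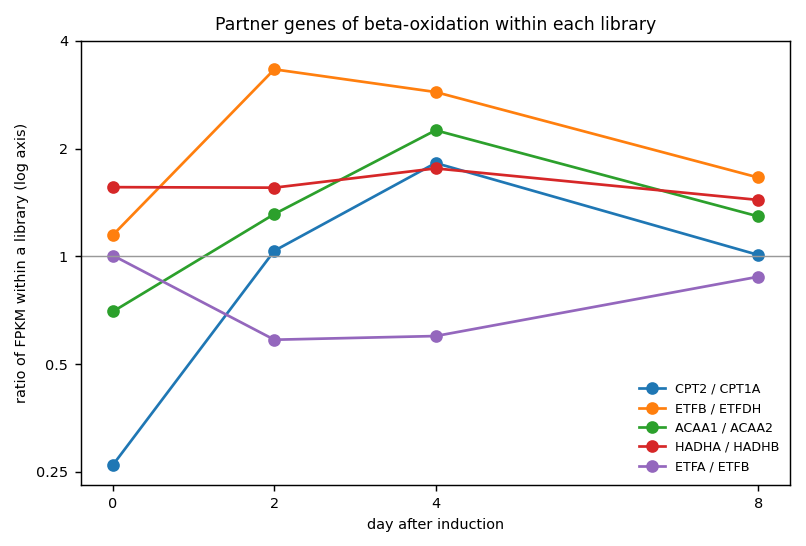
Ratio of the FPKM of 5 pairs of genes within each library (log axis) by day after induction, with 1 point per library and lines joining the 4 libraries of a pair. HADHA to HADHB stays between 1.44 and 1.76, whereas CPT2 to CPT1A goes from 0.262 at D0 to 1.82 at D4 and ETFB to ETFDH from 1.15 at D0 to 3.33 at D2.

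The peroxisomal genes held the largest rise. ACAA1 (chromosome 13, 22964844 to 23020138), the peroxisomal thiolase, had 8.59 FPKM before induction and then 28.2 (D2), 71.7 (D4) and 41.4 (D8). Its log2 ratio to D0 was 1.71 [1.65, 1.78] at D2, 3.06 [3.00, 3.12] at D4, which is 8.33-fold, and 2.27 [2.21, 2.33] at D8. ACAA1 was also the single member that rose from D2 to D4, by 1.35. It moved from rank 24 of the 31 levels at D0 to rank 10 at D4, and its level went from 0.701 times that of the mitochondrial thiolase ACAA2 at D0 to 2.25 times at D4. MYD88, on the opposite strand, shares 2618 bases with ACAA1 and had 7.53, 5.41, 9.55 and 5.13 FPKM, a far smaller range than that of ACAA1.

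Branched chains enter peroxisomal beta-oxidation after further steps, and PHYH and AMACR, which act in those steps, rose from D0 to D4. PHYH (chromosome 10, 48404298 to 48423978), the hydroxylase that opens the alpha-oxidation of phytanic acid, had 21.5, 48.0, 66.8 and 66.1 FPKM and rose by 1.16, 1.64 and 1.62 on the log2 scale in the 3 later libraries. Like ACAA2, it held its D4 level at D8. AMACR (chromosome 16, 20005741 to 20023339), the racemase that gives the acyl-CoA form the oxidase can use, had 10.9, 19.3, 27.6 and 17.9 FPKM and rose by 1.34 at D4. ACOX3, an oxidase of branched acyl-CoA, had 2.73, 5.36, 5.41 and 2.73 FPKM and was thus back at its D0 level at D8. ACOX3 was the member nearest to the 2-fold limit from outside, with a log2 ratio of 0.98 [0.88, 1.10] at D4.

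The remaining peroxisomal genes covered the middle of the round and the transporter. HSD17B4 (chromosome 2, 123313445 to 123401386), the bifunctional hydratase and dehydrogenase for branched and very long chains, had 50.3, 93.9, 102.8 and 61.3 FPKM and was the member nearest to the limit from inside, with 1.033 [1.002, 1.063] at D4. EHHADH, the other bifunctional enzyme, had 7.80, 10.9, 11.9 and 8.96 FPKM and did not reach 2-fold. SCP2, whose long form is a thiolase for branched chains, lay between 55.5 at D0 and 80.6 at D4. ABCD3, the membrane transporter of acyl-CoA, was the exception in the role and was lower in all 3 later libraries with 13.2, 10.9, 11.6 and 8.59 FPKM. The summed FPKM of the 8 peroxisomal genes was 170.4, 296.5, 378.4 and 276.4, while that of the 23 other members was 1012, 1193, 1235 and 1090.

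**Figure D3:**
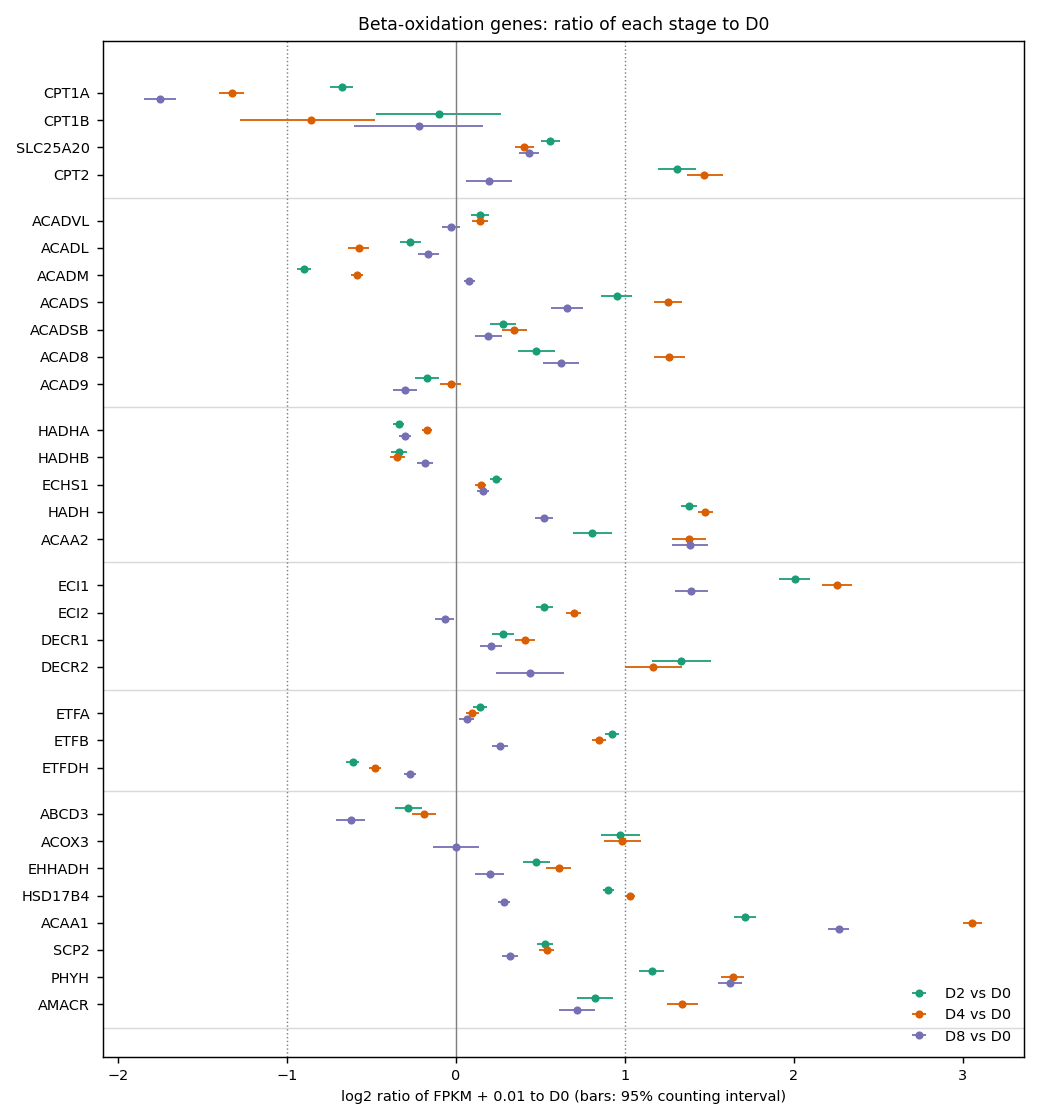
Log2 ratio of FPKM + 0.01 to D0 (x axis) for the 31 genes, ordered by role, with 1 point each for D2, D4 and D8 and bars for the 95% counting interval of that ratio. Dotted lines mark 2-fold in either direction, CPT1A is the only gene that passes the left line, and ACAA1 at D4 lies farthest to the right at 3.06.

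Set against all 9191 protein-coding genes that passed, the members were shifted upward in each comparison with D0. At D2, 6 of 30 members (20%) rose (CPT2, HADH, ECI1, DECR2, ACAA1 and PHYH), where 6.67% of all genes did, and 0 members fell, where 10.1% of all genes did. With the libraries scaled by the summed FPKM of protein-coding genes, 10 members and 759 of all genes rose. The median log2 ratio was 0.50 for the members and -0.03 for all genes. At D4, 11 of 30 members (36.7%) rose against 10.4% of all genes, 1 fell against 8.81%, and the medians were 0.57 and 0.06. At D8, 4 of 30 (ACAA1, ECI1, PHYH and ACAA2, 13.3%) rose against 3.60%, 1 fell against 3.68%, and the medians were 0.20 and -0.18. These 3 comparisons share the D0 library, so that a value peculiar to it enters all of them.

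Between successive later stages the members were close to the rest. From D2 to D4, 1 of 30 (3.33%) rose where 4.24% of all genes did, 0 fell where 0.838% did, and the medians were 0.13 and 0.09. From D4 to D8, 0 rose where 4.43% of all genes did, and CPT2 alone fell where 10.1% did. With the scaling by protein-coding FPKM, 3 of 30 members and 1023 of all 9191 genes fell. As deposited, the median was -0.34 for the members and -0.21 for all genes. Of the members, 23 of 30 were lower at D8 than at D4 and 7 were higher, where 35.08% of all genes were higher. Only 17 of 30 members were lower when the libraries were scaled by median-ratio size factors. That scaling moved the median of all genes to -0.00 from D4 to D8 and to -0.03 from D0 to D8. Relative to the median of all genes, the members stood 0.53 higher at D2, 0.51 higher at D4 and 0.38 higher at D8 than at D0, and 0.13 lower at D8 than at D4.

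**Figure D4:**
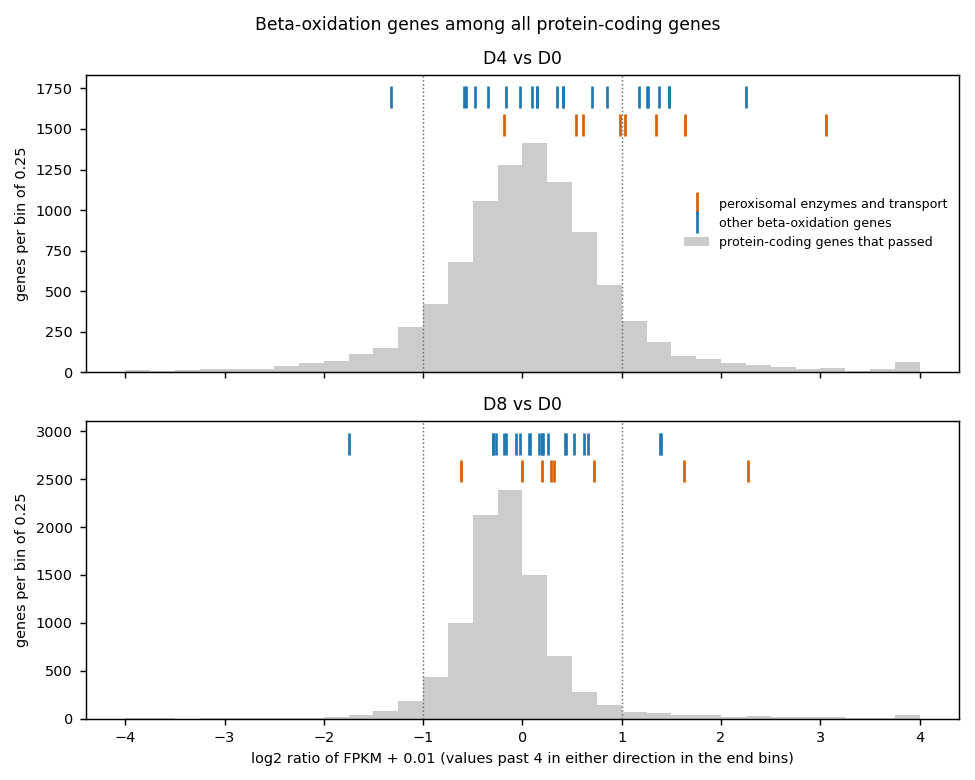
Histogram of log2 ratios of FPKM + 0.01 for the 9191 protein-coding genes that passed the FPKM minimum (grey, genes per bin of 0.25, with values past 4 placed in the end bins), for D4 vs D0 above and D8 vs D0 below, with a tick for each of the 30 members (orange for the 8 peroxisomal genes, blue for the others). Dotted lines mark 2-fold, 11 ticks lie past the right line at D4 and 4 at D8, and 1 tick, CPT1A, lies past the left line in both panels.

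By role, the medians were highest for the auxiliary and peroxisomal genes, but members of other roles rose too. At D4, 2 of 4 auxiliary and 4 of 8 peroxisomal genes rose, beside 10.4% of all genes. So did 1 of 3 carnitine shuttle genes, 2 of 7 acyl-CoA dehydrogenases, 2 of 5 genes of the later mitochondrial steps and 0 of 3 electron transfer genes. The median log2 ratios to D0 at D4 were 0.93 for the auxiliary and 1.01 for the peroxisomal genes. They were 0.41 for the 3 carnitine shuttle genes that passed, 0.14 for the acyl-CoA dehydrogenases, 0.15 for the later mitochondrial steps and 0.10 for electron transfer. The neighbouring pathways of mitochondria were flatter. At D4 the 17 genes of the citrate cycle had a median of -0.00, with genes from -0.93 to 0.95. The 31 nuclear genes of the respiratory chain found by name had a median of -0.09, with genes from -0.79 to 0.81. In the 5 comparisons, 0 genes of either list rose or fell. Of all genes, between 0.838% and 10.4% did so in a given direction, depending on the comparison.

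**Figure D5:**
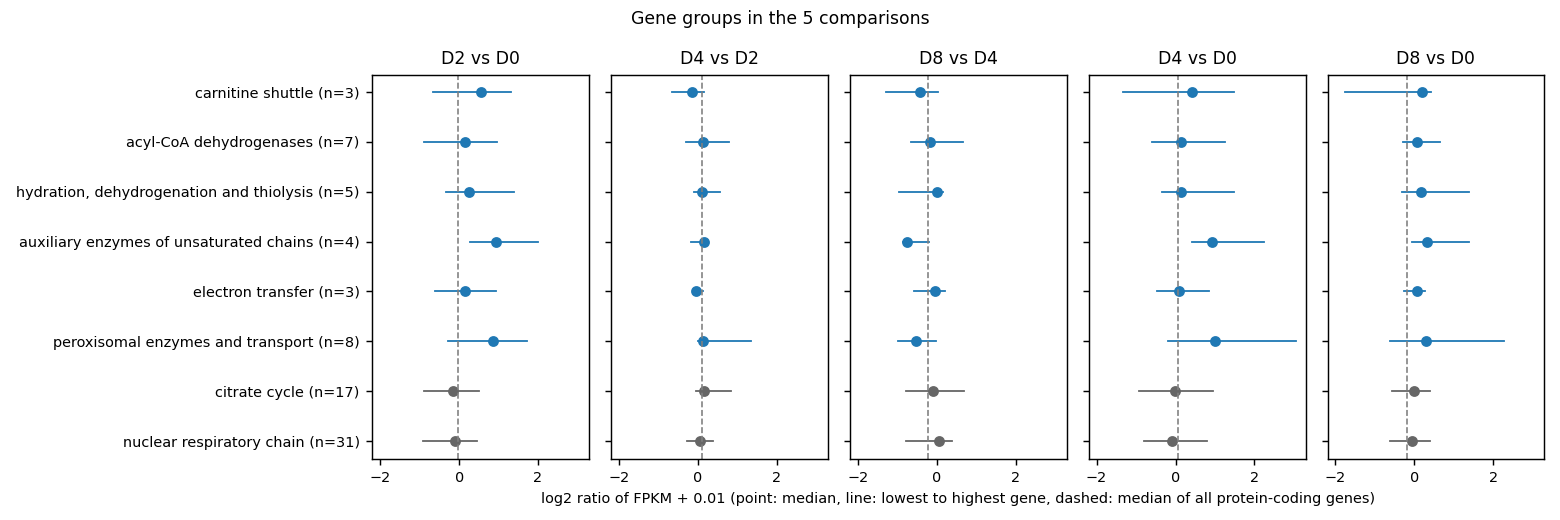
Median (point) and lowest to highest gene (line) of the log2 ratio of FPKM + 0.01 for the 6 roles of beta-oxidation (blue) and 2 other mitochondrial lists (grey) in the 5 comparisons, with the median of all protein-coding genes as a dashed line. For D4 vs D0, the auxiliary (0.93) and peroxisomal (1.01) medians lie farthest to the right, and the citrate cycle (-0.00) and respiratory chain (-0.09) medians lie near the dashed line.

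The genes around beta-oxidation were read from 9 lists of activating, transporting and controlling genes, of which 86 were measured and 70 met the FPKM minimum. From D0 to D4, 22 of the 70 rose and 3 fell, with a median of 0.64, beside 10.4% and 8.81% of all genes. At D2, 17 rose and 3 fell, beside 6.67% and 10.1%. At D8, 8 rose and 2 fell relative to D0, beside 3.60% and 3.68%, so that the falls were near the share of all genes. From D4 to D8, 1 rose and 13 fell, beside 4.43% and 10.1%. The 5 largest rises at D4 were in ACSL1, which activates long chains (10.8, 57.8, 219.4 and 128.2 FPKM), ACSS3, which activates short chains (0.189, 1.66, 3.03 and 1.71), CAT, the catalase that breaks down hydrogen peroxide (39.0, 338.7, 547.5 and 136.8), PEX11A, which acts in peroxisome division (0.915, 2.17, 7.42 and 7.08), and ALDH9A1, which takes part in carnitine synthesis (34.5, 151.7, 264.1 and 65.3). Their log2 ratios ran from 2.94 for ALDH9A1 to 4.35 for ACSL1, and CAT and ALDH9A1 were among the 13 that fell from D4 to D8.

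At the other end, the thioesterases ACOT9 (30.2, 12.1, 10.6 and 23.8 FPKM) and ACOT7 (3.43, 1.14, 1.60 and 1.39) and the peroxisomal carnitine acyltransferase CROT (61.2, 28.5, 27.6 and 33.5) fell from D0 to D4 by 1.51, 1.10 and 1.15. ACSL4, which prefers polyunsaturated chains (50.2, 36.0, 29.0 and 17.5), came next without reaching 2-fold at D4. By list, again beside 10.4% of all genes, the rises at D4 were 4 of 11 acyl-CoA synthetases, 5 of 15 peroxins, 2 of 9 further genes of peroxisomal transport and alpha-oxidation, 2 of 7 ketone body and acetoacetyl-CoA enzymes, 1 of 4 genes of the propionyl-CoA branch, 2 of 8 genes of transcriptional and malonyl-CoA control, 1 of 4 carnitine and acyltransferase genes, where 1 also fell, and 0 of 6 thioesterases, where 2 fell. Among the acyl-CoA dehydrogenases and oxidases outside the 31 genes, 5 of 6 rose at D4. From D4 to D8, 4 of these 6 fell, beside 10.1% of all genes. Relative to D0, 0 of the 6 rose at D8, beside 3.60% of all genes. ACACA, which makes malonyl-CoA and was picked out after its values were seen, had 7.15, 18.7, 51.8 and 24.1 FPKM. On the same list, ACACB had 0.397, 0.464, 0.327 and 0.316 FPKM and did not meet the minimum. MLYCD, also of that list, had 1.19, 1.99, 2.10 and 1.47 FPKM.

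Markers of adipocytes were also higher after induction. The summed FPKM of 8 adipocyte markers was 121.9, 473.3, 1713 and 2057, and all 7 that passed rose in each comparison with D0. Of all genes, 6.67% rose at D2, 10.4% at D4 and 3.60% at D8. From D4 to D8 only FABP4, a fatty acid binding protein, was higher among these 7 (853.3 and 1557 FPKM). Of the 7, 4 fell, where 10.1% of all genes did, and their median log2 ratio was -1.25. CIDEC, the marker that did not pass, had 0.271, 0.780, 5.01 and 54.6 FPKM and was thus also higher at D8 than at D4. The 8 mesenchymal markers added up to 5674 to 6370 in each library, but their members differed. From D0 to D4, COL3A1 and PDGFRB rose by 2.07 and 1.21 while VIM fell by 1.95, beside 10.4% and 8.81% of all genes. From D4 to D8, 3 of the 8 fell and 1 rose, beside 10.1% and 4.43% of all genes. Of the macrophage and leukocyte markers, 5 were measured with sums of 3.59, 7.40, 8.81 and 4.38, and the 5 endothelial markers measured had sums of 1.18 to 2.70. The 6 skeletal muscle markers measured had sums of 0.192 to 0.723, with each gene under 1 in every library, and the 1 erythroid marker measured was at 0 in all libraries but D4, where it had 0.271. The part of these changes in cell makeup in the levels of the beta-oxidation genes was not tested.

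Circular RNAs were also listed, in SRPBM, which is reads across the back-spliced junction scaled by the reads mapped in the library. Of 8623 circRNAs, 24 lay within 11 of the member genes on their strand, and 20 member genes had none. Most were at the edge of detection, since 14 of the 24 were found in 1 library only and the highest had 15 junction reads. By library, 8, 10, 9 and 16 of the 24 were found at D0, D2, D4 and D8. Of all 8623 circRNAs, 3938, 3600, 4185 and 3960 were found in the same order. ETFA had the most, with 6 circRNAs that shared junction ends with one another and 26, 19, 25 and 57 junction reads in the order D0, D2, D4 and D8. A single circRNA each of ETFA and HADH was found in all 4 libraries. The one of HADH, from an interval of 14946 bases, had 2, 12, 13 and 7 junction reads. The junction reads in all members were 63, 56, 82 and 102, out of 53207, 43989, 51074 and 37480 in the libraries.

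The members were spread over 15 chromosomes. Apart from HADHA and HADHB, the closest pair was SCP2 and CPT2 on chromosome 6, 129717 bases apart. Of the 31 genes, 9 overlapped another listed gene, in each case on the opposite strand.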

How the data were processed

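RNA of 3 piglets was pooled per stage, and 1 library was made for each of D0, D2, D4 and D8. After trimming, the authors mapped the reads to Sus scrofa 11.1 with HISAT2 2.0.5 (submitters' processing notes and the study's methods), and deposited FPKM for mRNAs and lncRNAs. For circRNAs, they deposited SRPBM from BWA-MEM and CIRI, with at least 2 junction reads. The gene counter, its strand setting and its gene models are not given in the sources used here. One column holds both units, and the biotype tells them apart.

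From the deposited FPKM, library totals were computed from the smallest steps of tRNA and miRNA genes, of which 93.42% to 94.9% of values then gave whole fragments. For each member, the smallest length between 100 and 20000 bases that gave whole fragments in all 4 libraries (within 0.003) was used, so that a true count could be a multiple of the one used and the intervals narrower than given. The step was tested on simulated data, where 500 of 500 read numbers came out as drawn or as a whole fraction. Log2 ratios used a pseudocount of 0.01, understate the change of low genes, and have exact conditional binomial 95% intervals. No model was fitted and no p-value was computed, since each stage has 1 library. Python 3.11.15, numpy 2.4.6, pandas 2.3.3 and scipy 1.17.1 were used.

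The members and all lists were chosen with earlier results of these data known. Every member is named, and of the 9 pathway lists the 5 largest log2 ratios at D4 vs D0 in either direction, of which 1 gene is not reported here. Positions are those deposited, and all 31 members had the same symbol, start and end in the RefSeq table of Sscrofa11.1, which gave the chromosome number. Alternatives were a pseudocount of 0.1 or 1, no FPKM minimum, FPKM of at least 5 in all libraries, and scaling by median-ratio size factors or by the summed FPKM of protein-coding genes. Protein and promoter sequences were not analysed here.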

Additional observations from a re-analysis of the deposited data

How the results depend on the processing

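Under the 6 alternatives to the pseudocount, the FPKM minimum and the scaling, no median over the members and no member ratio of at least 2 changed sign. Of the median log2 ratios of the members, 23 of 30 values under an alternative stayed between the medians of the members' lower and upper counting bounds. Of the counts of members, 29 of 30 for rises and 26 of 30 for falls stayed within 1.5 times the count from the values as deposited. As deposited, all counts of falls were 0 or 1, as were the rises in D4 vs D2 and D8 vs D4. A 0 that stayed 0 was taken as unchanged, so such counts say little about stability. Scaling by the summed FPKM of protein-coding genes gave 10 members that rose from D0 to D2 (6 as deposited) and 3 that fell from D4 to D8 (1 as deposited), with medians of 0.61 for D2 vs D0 and 0.061 for D4 vs D2. Over all 9191 genes, it gave 759 that rose from D0 to D2 (613 as deposited) and 1023 that fell from D4 to D8 (928 as deposited). Median-ratio size factors gave medians of 0.039 for D4 vs D2, -0.13 for D8 vs D4 and 0.35 for D8 vs D0. With FPKM of at least 5 in all libraries, 26 members were left, without CPT1A and CPT2, the only members that fell as deposited. At that minimum 0 members fell in D8 vs D4, D4 vs D0 or D8 vs D0, where 230, 355 and 86 of 4979 genes did. The medians of the members were -0.21 for D8 vs D4 and 0.48 for D4 vs D0. Of the ratios of single members under an alternative, 702 stayed within their counting interval and 178 did not. Both scalings shift every gene of a comparison alike, and 20 of 300 member ratios changed sign under them, none of them at least 2-fold. Of the protein-coding genes past 2-fold, the share that was higher went from 30.5% to 52%, past an even split, in D8 vs D4 and from 49.5% to 66.1% in D8 vs D0 under median-ratio size factors.

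No paired analysis was possible because each stage has 1 pooled library, and for the same reason there was no fit without a library. The counting intervals do not cover the variation between piglets, cultures or libraries, and no value here measures that variation. With 401 or more fragments behind each value of the 30 members that passed, depth limits CPT1B and the circRNAs more than the other values.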
